A study of Mus musculus with 15 samples.

Results

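RNA from adipocytes exposed to forskolin for 1 day was compared with RNA from the same kind of cells exposed for 4 h. The comparison used 6 of the 15 libraries in the series, 3 with forskolin for 1 day (FSK1D) and 3 with forskolin for 4 h (FSK4h), picked by the group names in the column headers. All 14421 genes that passed an expression filter, of 24421 in the table, were tested. The cells were MAP cells, an immortalized mouse line of adipocyte progenitors, and all groups had first been differentiated with insulin, isobutylmethylxanthine, dexamethasone and rosiglitazone for 2 days and with insulin and rosiglitazone for 2 more days. Forskolin was given at day 7 to 8. A vehicle group of 3 libraries supplies the untreated level, measured in the same way. Isobutylmethylxanthine blocks cAMP breakdown and rosiglitazone activates PPARγ, so every group, vehicle included, had met both agents before forskolin. The doses, the harvest time of the vehicle cells and the clock times of the harvests were not given in the sources used here, and 1 cell line was used. The 4 h and 1 day cells differ in time under forskolin and in any effect of the hours themselves, and these cannot be told apart.

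Forskolin activates adenylyl cyclase, the enzyme that makes cAMP. In fat cells cAMP releases the catalytic subunits of protein kinase A, which phosphorylate lipid droplet proteins and lipases and, in the nucleus, the transcription factor CREB. CREB binds the cAMP response element (CRE) and switches on a first wave of genes, among them transcription factors and also inhibitors of the pathway such as phosphodiesterases, salt-inducible kinases and the CREM repressor. Longer exposure is the setting in which feedback and secondary programs are usually looked for, including the heat-producing program of brown and beige fat.

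Library totals were 27514310 to 39968932 counts in FSK4h and 25638062 to 26945435 in FSK1D. Across genes, Pearson's r on log2 values between libraries of a group was 0.990 to 0.993, with genes not being independent replicates. Adipocyte genes were abundant at 4 h, with Adipoq (adiponectin) at 1464 ± 55.1 CPM (counts scaled to a common library total, mean ± SD, n = 3) and Lpl (lipoprotein lipase) at 5311 ± 500.2 CPM. Both genes were lower at 1 day, and the Adipoq libraries are given further on. Leukocyte markers were low, with Ptprc, Adgre1, Itgam and Lyz2 under the expression filter and a summed level of 10.5 to 12.2 CPM over 15 genes in FSK4h and 10.8 to 12.1 CPM in FSK1D. Endothelial markers summed to 7.06 to 7.68 CPM at 4 h and 4.39 to 5.93 CPM at 1 day. Progenitor markers, which mark cells that have not matured, summed to 2511 to 2651 CPM in FSK4h and 2419 to 2526 CPM in FSK1D, and Schwann cell and neuronal markers to 14.3 to 16.6 and 17.1 to 19.2 CPM. The share of counts on Rn45s, the ribosomal RNA precursor, was 8.53% to 8.87% at 4 h and 7.11% to 8.21% at 1 day. With Rn45s removed from the table, 4168 genes were called higher and 4117 lower, near the counts given next. In bulk RNA, fewer cells of a type and less RNA per cell cannot be told apart.

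Of the tested genes, 8260 (57.3%) differed between 1 day and 4 h at an adjusted p under 0.05 (edgeR quasi-likelihood test, Benjamini-Hochberg adjustment). They split into 4096 higher at 1 day (28.4% of tested genes) and 4164 lower (28.9%). With a change of at least 2-fold, 677 were higher (4.69%) and 663 lower (4.6%). The 3 libraries of one group lay wholly above the 3 of the other for 8999 genes (62.4%). The even split depends on how libraries are scaled. With the default scaling, the trimmed mean of M values (TMM), 49.6% of the calls were higher at 1 day. With library size alone it was 68.8%, since that scaling moves the median of all genes up by 0.16 on the log2 scale. Counts of calls in gene lists are therefore given under both scalings. The counts under TMM are to be read beside the 28.4% higher and 28.9% lower of all tested genes.

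**Figure D1:**
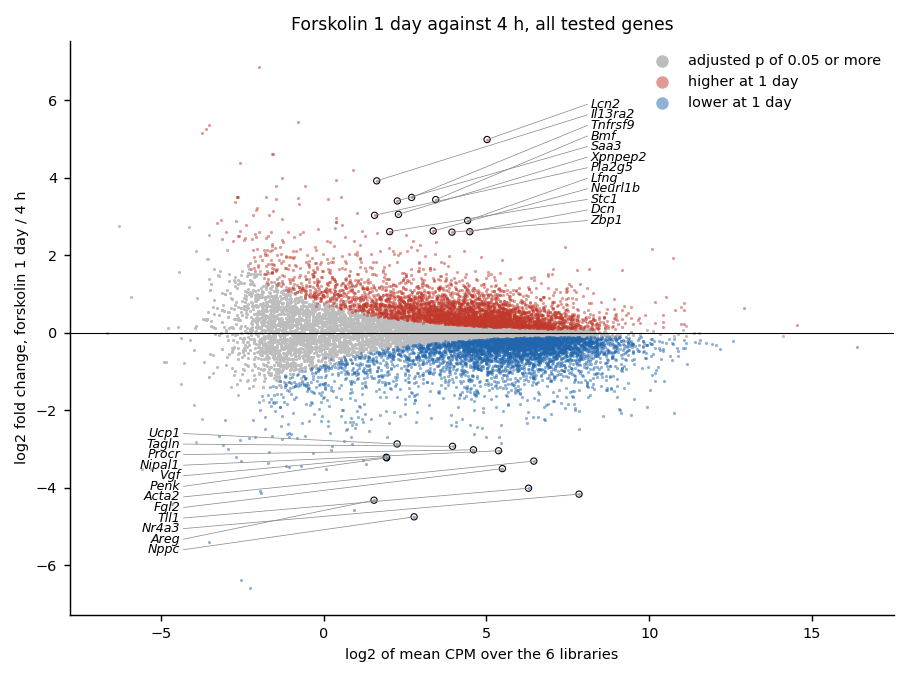
Each point is a tested gene, with the log2 of its mean CPM over the 6 libraries on the x axis and its log2 fold change, 1 day over 4 h, on the y axis. Red points were called higher (4096 genes) and blue points lower (4164 genes), and the 12 largest named rises and 12 largest named falls are circled.

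Among genes that reached 5 CPM in the higher group without overlap between the libraries, the 12 largest falls took in secreted signals, the transcription factor gene Nr4a3 and Ucp1, all high at 4 h, and also smooth muscle genes that stood no higher at 4 h than in vehicle. Nppc (chromosome 1, 86666291 to 86670571, minus strand, GRCm38) encodes C-type natriuretic peptide, which signals through cyclic GMP. It was at 13.6, 14.2 and 11.96 CPM in the 4 h libraries and at 0.400, 0.227 and 0.842 CPM in the 1 day libraries. In vehicle only 2 counts of Nppc were found over the 3 libraries. The fall was 27.0-fold (log2 fold change -4.75, SE 0.32, adjusted p 1.0e-12). Areg encodes amphiregulin, a ligand of the EGF receptor. Its libraries held 5.25, 4.85 and 6.63 CPM at 4 h and 0.291, 0.227 and 0.306 CPM at 1 day, a log2 difference of -4.32 (SE 0.38, adjusted p 1.8e-11), again with 2 counts over the vehicle libraries. For both genes the 4 h libraries were all high, and the 1 day libraries were all far lower but above the vehicle level.

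Tll1 (chromosome 8, 64014931 to 64206271, minus strand) encodes tolloid-like 1, a metalloprotease that processes procollagens and BMP antagonists. Its libraries read 4.38, 5.38 and 3.34 CPM in vehicle, 149, 138 and 156 CPM at 4 h and 9.35, 8.52 and 9.61 CPM at 1 day. This was a 16.1-fold fall (log2 fold change -4.01, SE 0.09, adjusted p 4.3e-27), and the 1 day libraries still lay above all 3 vehicle libraries. Fgl2, a fibrinogen-like secreted protein, stood at 78.4, 89.9 and 79.9 CPM at 4 h and 7.39, 6.06 and 8.38 CPM at 1 day (log2 fold change -3.51, SE 0.10, adjusted p 2.5e-24), against 10.6, 8.34 and 9.25 CPM in vehicle. Procr, the endothelial protein C receptor gene, fell from 43.3 ± 2.33 to 5.33 ± 0.614 CPM (mean ± SD, n = 3). The neuropeptide precursor genes Penk and Vgf fell from 6.93 ± 0.787 to 0.733 ± 0.362 CPM and from 6.86 ± 0.659 to 0.736 ± 0.179 CPM. Nipal1, a magnesium transporter gene, fell from 73.9 ± 3.39 to 8.96 ± 1.12 CPM. None of these libraries overlapped between the groups.

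The falls were not all returns from an early peak. Acta2 (chromosome 19, 34241090 to 34255590, minus strand) encodes smooth muscle actin. Its libraries read 215, 209.7 and 218 CPM in vehicle, 152, 161 and 165 CPM at 4 h and 15.9, 15.1 and 17.2 CPM at 1 day. Vehicle and 4 h libraries were both high and the 1 day libraries were all far lower, 9.94-fold below 4 h (log2 fold change -3.31, SE 0.06, adjusted p 1.4e-29). Tagln, encoding the actin-binding protein transgelin, followed the same course, from 34.2 CPM in vehicle and 27.5 ± 1.804 CPM at 4 h to 3.61 ± 0.469 CPM at 1 day.

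By the same limits, the largest rise was in Lcn2 (chromosome 2, 32384633 to 32388252, minus strand), which encodes lipocalin 2, a secreted iron-siderophore carrier of the acute-phase response. Its libraries read 0.0617, 0.525 and 0.367 CPM in vehicle, 2.09, 1.86 and 1.95 CPM at 4 h and 64.9, 65.0 and 59.0 CPM at 1 day. Levels at 1 day were 32.0-fold those at 4 h (log2 fold change 4.99, SE 0.19, adjusted p 4.2e-14). Saa3, encoding the acute-phase protein serum amyloid A3, rose from 0.907, 0.566 and 0.973 CPM to 8.11, 7.53 and 10.8 CPM (log2 fold change 3.41, SE 0.25, adjusted p 1.5e-13). In both genes the 4 h libraries were closer to vehicle than to the 1 day libraries. Il13ra2, the decoy receptor for interleukin 13, rose from 0.373 ± 0.0809 to 5.83 ± 1.27 CPM, and Tnfrsf9, the 4-1BB receptor gene, from 1.06 ± 0.249 to 11.98 ± 1.06 CPM. Stc1, the gene of the secreted hormone stanniocalcin 1, rose from 1.14 ± 0.0460 to 7.03 ± 2.29 CPM, and Dcn, the gene of the small matrix proteoglycan decorin, from 6.36 ± 0.987 to 38.6 ± 3.60 CPM.

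Among the other large rises, Bmf, Lfng and Neurl1b went back towards the untreated level. Bmf encodes a BH3-only protein that promotes apoptosis. It was at 29.5, 31.9 and 28.7 CPM in vehicle, at 1.54, 2.06 and 1.98 CPM at 4 h and at 20.4, 18.7 and 20.7 CPM at 1 day (log2 fold change 3.44, SE 0.13, adjusted p 1.1e-21). Lfng and Neurl1b, both encoding modifiers of Notch signalling, had the same order of levels. Lfng was at 49.4 CPM in vehicle, 5.06 ± 0.271 CPM at 4 h and 37.9 ± 3.93 CPM at 1 day, and Neurl1b at 15.8, 2.89 ± 0.466 and 17.7 ± 2.78 CPM. Zbp1, a sensor of Z-form nucleic acid, went from 4.31 ± 0.942 to 26.5 ± 8.39 CPM with 5.10 CPM in vehicle, so it ended above the untreated level. Pla2g5, a secreted phospholipase A2, and Xpnpep2, an aminopeptidase, completed the 12 rises with log2 fold changes of 3.03 and 3.06. Their 1 day means of 5.32 and 8.80 CPM lay above their vehicle means of 1.31 and 0.802 CPM.

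**Figure D2:**
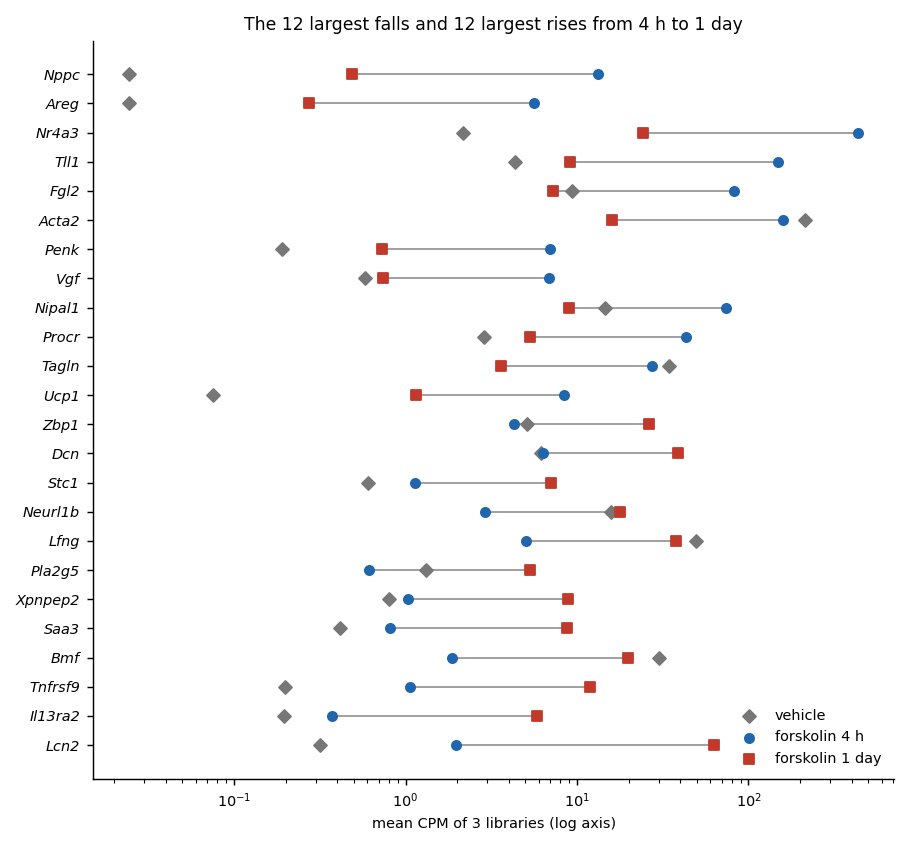
Mean CPM of 3 libraries on a log axis for the 12 genes with the largest falls (top) and the 12 with the largest rises, with vehicle as grey diamonds, 4 h as blue circles and 1 day as red squares. Acta2 and Tagln have vehicle and 4 h close together, while Bmf, Lfng and Neurl1b have vehicle and 1 day close together.

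The first-wave transcription factors were lower at 1 day almost throughout. Of 33 tested genes listed as immediate early or cAMP-induced factors, 29 fell, 16 of them by 2-fold or more, and 2 rose. The share that fell among all tested genes was 28.9%. The list's median log2 fold change was -0.96, against 0.01 over all tested genes, and the counts were 29 lower and 3 higher with library size alone. The 3 NR4A genes, which encode orphan nuclear receptors that CREB induces, did not move alike. Nr4a3 (chromosome 4, 48045153 to 48086447, plus strand) was at 2.25, 2.33 and 1.94 CPM in vehicle, 414, 458 and 433 CPM at 4 h and 25.7, 18.1 and 29.0 CPM at 1 day, a 17.9-fold fall (log2 fold change -4.16, SE 0.15, adjusted p 2.0e-10). Nr4a1 (chromosome 15, 101254269 to 101274795, plus strand) was at 13.4, 10.6 and 10.4 CPM in vehicle, 152, 153 and 141 CPM at 4 h and 83.5, 75.2 and 94.2 CPM at 1 day, a fall of less than 2-fold (log2 fold change -0.82, SE 0.07, adjusted p 2.4e-10). Nr4a2 (chromosome 2, 57106830 to 57124003, minus strand) rose, from 44.2, 36.1 and 45.3 CPM at 4 h to 72.3, 64.1 and 85.0 CPM at 1 day (log2 fold change 0.82, SE 0.09, adjusted p 8.7e-09), with 4.69, 3.94 and 5.14 CPM in vehicle. All 3 receptors stood above every vehicle library at both times, and at 1 day Nr4a3, the highest of them at 4 h, was the lowest.

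The AP-1 genes, whose proteins pair as Fos-Jun dimers, also fell. Fos was at 15.97, 16.1 and 20.2 CPM at 4 h and 6.73, 7.84 and 6.12 CPM at 1 day (log2 fold change ± SE -1.34 ± 0.14, adjusted p 3.6e-10, the form used in parentheses from here on), Fosb at 5.38 ± 0.696 and 1.24 ± 0.149 CPM, and Fosl1 at 37.9 ± 2.27 and 12.5 ± 1.20 CPM. Junb fell from 125 ± 10.5 to 73.3 ± 4.73 CPM and remained above its vehicle mean of 19.7 CPM. The zinc finger gene Egr2 fell from 25.5, 30.1 and 28.5 to 4.80, 5.75 and 6.43 CPM, ending under all 3 vehicle libraries (10.3, 7.88 and 8.03 CPM). Ier3, an early-response survival gene, fell from 157 ± 17.1 to 35.1 ± 2.19 CPM, and Atf3, a stress-induced member of the ATF family, from 47.3 ± 5.68 to 12.2 ± 1.3999 CPM. Besides Nr4a2, the only riser was Cebpd, an early adipogenic factor, which went from 37.5 ± 2.76 to 53.4 ± 2.07 CPM (log2 fold change 0.51, adjusted p 1.1e-05). Jund and Klf2 had log2 fold changes of -0.06 and 0.13 and did not pass the test, though Klf2 was called higher with library size alone.

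The promoters of these factors were searched for the CRE, TGACGTCA, and for its core, TGACG, on both strands in the 250 bases before each start, taken from RefSeq (GRCm38.p6). A full CRE contains the core, so the counts overlap. Promoters were found for 23 of the 33 factors, 30 promoters in all, and 20 of these (66.7%) held TGACG in 16 genes. The share was 25.6% of 13589 promoters of tested genes and 17.8% of all 32851 promoters in the table. Among genes that fell by 2-fold or more it was 29.1% (168 of 578 promoters), and among genes that rose by as much 18.9% (119 of 629). The full CRE was in 2.51% of promoters of tested genes, 3.63% and 1.91% of those that fell and rose by 2-fold, and 2 of the 30, those of Btg2 and Maff. A match describes the letters only. The promoters of 4 members are printed because the core is common to members that fell and to Nr4a2, which rose. Bases are given 5′ to 3′ on the gene's strand, and capitals mark TGACG or its reverse complement CGTCA, or the full CRE in Btg2. The windows are chr15:101266596-101266845 (plus strand) for Nr4a1, chr2:57124004-57124253 (minus) for Nr4a2, chr12:85473640-85473889 (plus) for Fos and chr1:134079156-134079405 (minus) for Btg2, all GRCm38 and outside annotated exons.
Nr4a1: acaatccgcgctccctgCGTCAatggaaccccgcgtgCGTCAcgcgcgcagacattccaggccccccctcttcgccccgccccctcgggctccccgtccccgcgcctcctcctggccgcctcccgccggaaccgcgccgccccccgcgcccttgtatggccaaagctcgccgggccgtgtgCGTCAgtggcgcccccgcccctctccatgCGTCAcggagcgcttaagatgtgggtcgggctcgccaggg
Nr4a2: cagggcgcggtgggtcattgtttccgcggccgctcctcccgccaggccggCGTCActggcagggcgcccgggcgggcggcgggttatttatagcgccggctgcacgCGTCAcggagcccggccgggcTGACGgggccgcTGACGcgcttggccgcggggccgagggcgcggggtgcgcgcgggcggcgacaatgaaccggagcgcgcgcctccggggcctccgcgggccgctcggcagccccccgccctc
Fos: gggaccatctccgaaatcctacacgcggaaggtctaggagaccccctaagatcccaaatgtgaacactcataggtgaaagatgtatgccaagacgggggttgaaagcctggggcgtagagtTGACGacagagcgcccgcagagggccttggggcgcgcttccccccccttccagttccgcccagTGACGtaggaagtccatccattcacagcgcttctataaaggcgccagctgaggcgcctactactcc
Btg2: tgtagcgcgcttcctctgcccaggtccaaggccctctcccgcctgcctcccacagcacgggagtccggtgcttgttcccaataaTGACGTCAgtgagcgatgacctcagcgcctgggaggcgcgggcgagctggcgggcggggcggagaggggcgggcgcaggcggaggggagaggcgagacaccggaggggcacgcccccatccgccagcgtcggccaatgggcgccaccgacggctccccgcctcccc
The Nr4a1 window, of a gene that fell by 1.76-fold, and the Nr4a2 window, of a gene that rose by 1.76-fold, held 4 matches each. Fos, with 2 matches, fell by 2.53-fold. Btg2, an antiproliferative gene with a full CRE, fell by 1.55-fold, from 80.1 ± 6.81 to 51.7 ± 3.84 CPM. These 4 genes are examples, Btg2 is marked by the full CRE only, and a link between matches and change was not tested.

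Inhibitors of the cAMP pathway were mixed by class. Phosphodiesterases, which break down cAMP, split into 6 that fell and 5 that rose of 13 tested, against 28.9% and 28.4% of all genes, with 4 and 5 under library size alone. Pde4d (chromosome 13, 108449948 to 109953461, plus strand), a cAMP-specific enzyme, was at 56.3, 54.0 and 54.8 CPM in vehicle, 246, 254 and 253 CPM at 4 h and 113, 114 and 115 CPM at 1 day (-1.14 ± 0.05, adjusted p 6.7e-20). All 1 day libraries of Pde4d lay between the vehicle and the 4 h libraries. Pde3b, the insulin-regulated enzyme of fat cells, fell from 409 ± 38.7 to 215 ± 10.2 CPM, and Pde4b from 135 ± 3.49 to 95.7 ± 6.96 CPM. The risers were other family members. Pde7b was at 4.51, 6.86 and 5.39 CPM in vehicle, 2.28, 2.87 and 3.03 CPM at 4 h and 12.3, 11.1 and 15.3 CPM at 1 day (2.25 ± 0.17, adjusted p 6.8e-13), under vehicle at 4 h and above it at 1 day. Pde8b rose from 4.65 ± 0.598 to 10.5 ± 0.847 CPM and the calcium-dependent Pde1b from 10.2 ± 0.304 to 20.4 ± 0.628 CPM.

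Among the salt-inducible kinases, the CREB family and its coactivators, 7 of 11 fell and none rose. For this list, and for each later list of 10 or more with none in a direction, edgeR's count in that direction was 0 also at an unadjusted p under 0.05, and DESeq2's was 0. The split was 5 lower and 2 higher with library size alone, and 6 lower and 1 higher without FSK1D S8. Sik1, a kinase that holds CREB coactivators out of the nucleus, was at 21.5, 22.4 and 20.6 CPM in vehicle, 203, 217 and 193 CPM at 4 h and 45.2, 52.6 and 44.5 CPM at 1 day (-2.11 ± 0.06, adjusted p 8.9e-24). Crem, whose inducible short forms repress CRE genes, was at 9.88, 10.5 and 11.7 CPM in vehicle, 91.2, 95.5 and 94.8 CPM at 4 h and 32.5, 29.7 and 35.3 CPM at 1 day (-1.53 ± 0.07, adjusted p 1.0e-18). Both remained above all vehicle libraries at 1 day. Creb1 itself was at 58.4 ± 1.75 CPM at 4 h and 63.5 ± 5.84 CPM at 1 day, with overlapping libraries (adjusted p 0.088), and was called higher with library size alone and without FSK1D S8.

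Of 12 tested genes for protein kinase A and its anchors, 7 fell and 2 rose, and 7 and 5 with library size alone. The regulatory subunit genes Prkar2a and Prkar1a fell from 163 ± 3.88 to 92.7 ± 2.10 CPM and from 718 ± 16.5 to 504 ± 4.98 CPM. The catalytic subunit genes Prkaca and Prkacb had log2 fold changes of 0.08 and 0.01 and did not pass the test, though both were called higher with library size alone. Pkig, which encodes an inhibitor of the catalytic subunit, rose from 9.92 ± 1.45 to 19.5 ± 1.39 CPM (0.97 ± 0.11, adjusted p 4.5e-09), and Akap12, a scaffold of the kinase, fell from 239 ± 15.4 to 109.7 ± 5.86 CPM (-1.12 ± 0.06, adjusted p 6.0e-18). The phosphatases and Sprouty proteins that restrain MAP kinases fell in 11 of 14 cases with a median of -0.58, and none rose, and 10 and 0 with library size alone. Dusp5, which inactivates ERK in the nucleus, fell from 43.9 ± 2.56 to 8.18 ± 1.59 CPM, Dusp10 from 78.9 ± 4.85 to 22.2 ± 0.742 CPM, and Spry4 from 99.2 ± 4.31 to 48.0 ± 0.895 CPM.

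**Figure D3:**
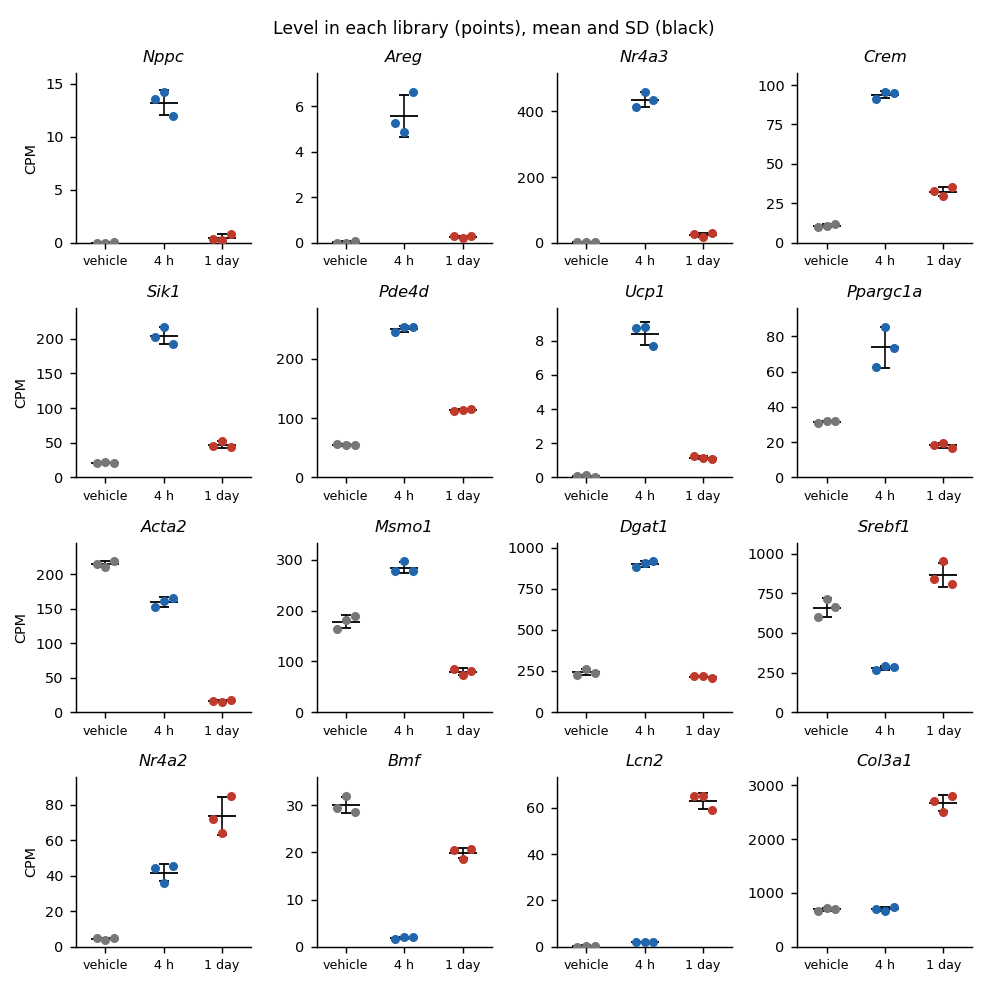
CPM of each library (points) with the group mean and SD (black lines, n = 3) in vehicle, 4 h and 1 day for 16 genes, each panel with its own linear y axis from 0. Nr4a3, Crem, Sik1 and Pde4d are highest at 4 h and lower but still above vehicle at 1 day, while Nr4a2 and Lcn2 are highest at 1 day.

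Adrenergic receptor, adenylyl cyclase and G protein genes gave no common direction. Of 17 tested, 7 were lower and 5 higher, and 3 and 7 with library size alone. The falls were 4 without FSK1D S9. Adrb3, the β3-adrenergic receptor of fat cells, was at 114, 137 and 120.4 CPM in vehicle, 27.5, 30.8 and 28.1 CPM at 4 h and 24.3, 26.9 and 22.7 CPM at 1 day (-0.22 ± 0.08, adjusted p 0.014). Its level was low at both times, and the step between them was small beside the gap to vehicle. The call was lost without FSK4h S5, FSK1D S7 or FSK1D S9, and with library size alone (edgeR adjusted p 0.52). Adcy3, a cyclase gene, fell from 129 ± 2.33 to 67.8 ± 3.64 CPM against 13.9 CPM in vehicle. Adra1d, an α1 receptor gene, rose from 9.15 ± 0.734 to 13.3 ± 1.06 CPM. Of 11 RGS genes, whose proteins shorten G protein signals, 4 rose and 3 fell, with 5 and 2 under library size alone and 3 and 1 when FSK4h S5 was left out. The main rises and falls were 36.4% and 27.3%, against 28.4% and 28.9% of all tested genes. Rgs2, which acts on Gq and on adenylyl cyclases, rose from 0.493 ± 0.0986 to 1.48 ± 0.132 CPM, and Rgs12 from 27.0 ± 0.432 to 49.3 ± 2.51 CPM.

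Thermogenic genes fell more often than they rose between 4 h and 1 day, a lean that was smaller with library size alone. Ucp1, which uncouples respiration in brown fat to make heat (chromosome 8, 83290352 to 83298452, plus strand), was at 0.0617, 0.164 and 0 CPM in vehicle, 8.77, 8.82 and 7.67 CPM at 4 h and 1.24, 1.14 and 1.07 CPM at 1 day, a fall of 7.33-fold (-2.87 ± 0.23, adjusted p 1.0e-12). Ppargc1a (chromosome 5, 51454250 to 51567726, minus strand), the coactivator of mitochondrial biogenesis, was at 31.1, 31.9 and 31.8 CPM in vehicle, 62.5, 85.5 and 73.4 CPM at 4 h and 18.6, 19.6 and 16.7 CPM at 1 day (-2.01 ± 0.08, adjusted p 1.2e-17). Ucp1 stayed above vehicle in every 1 day library, while Ppargc1a went from above all vehicle libraries to below them. Ppara and Ppargc1b, which drive fatty acid oxidation genes, fell from 27.4 ± 2.52 to 8.97 ± 1.66 CPM and from 33.8 ± 1.61 to 12.6 ± 2.45 CPM. Over the list, 8 of 18 thermogenic genes fell (44.4%, against 28.9% of all tested genes) and 4 rose (22.2%, against 28.4%). The rises were 2 without FSK4h S6, and with library size alone 6 fell and 5 rose. The risers include Ebf2, a brown-fat lineage factor, from 39.8 ± 0.703 to 58.0 ± 4.46 CPM, and Elovl3, a fatty acid elongase, from 1.11 ± 0.331 to 1.75 ± 0.126 CPM, whose gene overlaps Pitx3 and is uncertain for that reason. The Elovl3 call was also lost without FSK4h S5 (edgeR adjusted p 0.16) or FSK1D S7 (0.09). Prdm16, which sets brown identity, was at 0.559 ± 0.351 CPM at 4 h and 0.425 ± 0.315 CPM at 1 day (adjusted p 0.61).

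Beige markers and the genes of creatine and calcium cycling also had both directions (4 higher and 5 lower of 13; 4 and 4 with library size alone). Cited1 fell from 3.08 ± 0.159 to 0.471 ± 0.226 CPM and Ckb, a creatine kinase linked to futile creatine cycling, from 4.33 ± 0.518 to 2.00 ± 0.160 CPM, while Tnfrsf9, given above, and P2rx5 (3.31 ± 0.256 to 6.395 ± 0.940 CPM) rose.

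Mitochondrial genes moved by small amounts. Of 75 nuclear genes of oxidative phosphorylation, 23 fell and 1 rose, a share of falls near that of all genes, and the median was -0.09. With library size alone the counts were 9 lower and 16 higher with a median of 0.08, and leaving out a single library gave 14 (FSK4h S5) to 31 (FSK1D S8) lower and 0 to 3 higher, with medians of -0.04 and -0.12 in those 2 cases. Mitochondrial ribosomal proteins gave 14 lower and 7 higher of 68, and 10 and 23 with library size alone. The main shares, 20.6% and 10.3%, were both under those of all tested genes (28.9% and 28.4%). TCA cycle genes fell in 17 of 23 cases (73.9%, against 28.9% of all tested genes), with a median of -0.22. With library size alone 5 fell (median -0.05). The rises were 2 in the main fit and 4 with library size alone. The exceptions that rose were both subunits of the mitochondrial pyruvate carrier, Mpc1 from 31.4 ± 2.44 to 41.5 ± 1.95 CPM and Mpc2 from 60.1 ± 4.33 to 87.6 ± 7.88 CPM. Fatty acid oxidation genes gave 6 higher and 5 lower of 24 (25% and 20.8%, both under the shares of all tested genes). The counts were 12 and 3 with library size alone, and the falls were 8 without FSK1D S8. The largest fall there was Pdk4, the kinase that shuts off pyruvate dehydrogenase, from 278, 316 and 296 to 100.1, 99.8 and 89.0 CPM (-1.62 ± 0.06, adjusted p 4.4e-21), where the 1 day libraries overlapped the vehicle libraries (88.7, 98.1 and 98.3 CPM).

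Mature adipocyte genes fell more often than they rose, 13 against 3 of 24 tested (median -0.25; 8 and 6 with library size alone). The main shares were 54.2% and 12.5%, against 28.9% and 28.4% of all tested genes. Adipoq (chromosome 16, 23146536 to 23158028, plus strand) was at 1449.9, 1626 and 1508 CPM in vehicle, 1427, 1528 and 1439 CPM at 4 h and 699, 728 and 652 CPM at 1 day (-1.08 ± 0.05, adjusted p 9.7e-20). Vehicle and 4 h libraries were alike in range, and all 1 day libraries lay far under them. Car3, carbonic anhydrase 3, fell from 622 ± 80.5 to 141 ± 23.9 CPM (-2.14 ± 0.14, adjusted p 1.3e-07), and Pck1, the glyceroneogenic enzyme PEPCK, from 71.9 ± 5.00 to 11.1 ± 0.739 CPM (-2.69 ± 0.08, adjusted p 2.5e-24) against 16.8 CPM in vehicle. Pparg, the master regulator of fat cells, and Lipe, hormone-sensitive lipase, had log2 fold changes of -0.07 and -0.02 with overlapping libraries (adjusted p 0.45 and 0.8). Dgat2 rose from 117 ± 9.29 to 161 ± 9.28 CPM. Lep, the leptin gene, had no count in any of the 6 libraries, and 0.489 CPM in vehicle.

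Triglyceride and fatty acid synthesis genes gave 13 lower and 6 higher of 23, and 8 and 6 with library size alone. The acyltransferases of the last step went apart. Dgat1 was at 225, 262 and 241 CPM in vehicle, 881, 908 and 916 CPM at 4 h and 220.0, 217 and 210.1 CPM at 1 day (-2.06 ± 0.05, adjusted p 9.7e-27), a peak at 4 h only. Srebf1, the transcription factor of lipogenesis, was at 599, 715 and 667 CPM in vehicle, 268, 291 and 284 CPM at 4 h and 841, 953 and 807 CPM at 1 day (1.63 ± 0.10, adjusted p 8.7e-09), a trough at 4 h. Fasn, fatty acid synthase, was at 2283 ± 40.3 CPM at 4 h and 2004 ± 85.5 CPM at 1 day, against 4856 CPM in vehicle, a small further step (-0.19 ± 0.07, adjusted p 0.032) whose call was lost without any one of FSK4h S4, S5 and S6 and FSK1D S7 and S9, and with library size alone (edgeR adjusted p 0.77). Scd2, a desaturase, rose from 1602 ± 51.3 to 2727 ± 131 CPM.

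On the lipid droplet, 12 of 24 genes fell and 8 rose, and 8 and 10 with library size alone. Hilpda, an inhibitor of the lipase ATGL, fell from 128 ± 14.2 to 25.3 ± 3.86 CPM, while G0s2, another inhibitor of ATGL, rose from 36.9, 37.4 and 33.3 to 102, 105.3 and 83.7 CPM (1.44 ± 0.11, adjusted p 6.4e-08) against a vehicle mean of 91.8 CPM. Plin2, a droplet coat protein, fell from 1639 ± 22.7 to 696 ± 49.6 CPM, and Plin5, which tethers droplets to mitochondria, rose from 4.34 ± 0.472 to 11.6 ± 0.680 CPM. Angptl4, a secreted inhibitor of lipoprotein lipase, fell from 614 ± 32.0 to 220.0 ± 8.18 CPM. Adora1, the adenosine A1 receptor gene that lowers cAMP in fat cells, rose from 10.4 ± 0.803 to 23.0 ± 1.37 CPM.

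Cholesterol synthesis genes fell together. Of 26 tested, 24 fell and none rose, 11 of them by 2-fold or more, against 28.9% and 4.6% of all genes. The median was -0.90, and with library size alone 19 were lower and 2 higher. Msmo1, a sterol oxidase of the later steps, was at 164, 181 and 190.4 CPM in vehicle, 279, 297 and 278 CPM at 4 h and 85.9, 73.1 and 80.4 CPM at 1 day (-1.84 ± 0.06, adjusted p 9.1e-19). All 4 h libraries were above and all 1 day libraries below the vehicle range. Hsd17b7 and Idi1, enzymes of the same route, had log2 fold changes of -1.94 and -1.68. Ebp and Tm7sf2 did not pass the test and are the 2 called higher with library size alone.

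Glycolysis genes leaned the other way, with 16 of 26 higher and 6 lower (median 0.41; 17 and 5 with library size alone). The main shares were 61.5% and 23.1%, against 28.4% and 28.9% of all tested genes. The 6 falls were in transport (Slc2a1, Slc2a3, Slc16a1), in Hk2 and in the regulatory enzymes Pfkfb3 and Pfkfb4, and the rises took in most enzymes of the chain itself. The Pfkfb4 call was lost without FSK4h S4 or FSK1D S7 and with library size alone. Slc2a1, the basal glucose transporter, fell from 655 ± 49.4 to 301 ± 10.8 CPM, Hk2, the insulin-responsive hexokinase, from 415, 463 and 398 to 134, 149 and 123 CPM (-1.65 ± 0.08, adjusted p 5.6e-12), and Pfkfb3, which makes an activator of phosphofructokinase, from 295 ± 18.3 to 122 ± 11.1 CPM. Aldoc rose from 2.06 ± 0.569 to 7.45 ± 0.931 CPM and Pgk1 from 217 ± 13.6 to 371 ± 24.7 CPM (0.77 ± 0.05, adjusted p 3.6e-15). Pdk1, a kinase that inhibits pyruvate dehydrogenase, rose from 171 ± 11.2 to 329.7 ± 14.6 CPM. Vehicle means were 93.2 CPM for Slc2a1, 72.6 CPM for Hk2 and 107 CPM for Pgk1.

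Targets of hypoxia-inducible factors went in both directions (13 lower, 7 higher of 24; 8 and 8 with library size alone). Vegfa, the angiogenic growth factor, fell from 554 ± 50.1 to 292 ± 4.17 CPM against 133 CPM in vehicle, and Hif1a from 1155 ± 45.5 to 619 ± 65.4 CPM. P4ha2, a collagen prolyl hydroxylase, rose from 128 ± 2.36 to 202 ± 7.16 CPM.

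Insulin signalling had 10 genes lower and 6 higher of 22, and 7 and 10 with library size alone. In the main fit 45.5% fell and 27.3% rose, against 28.9% and 28.4% of all tested genes. Both insulin receptor substrates fell. Irs2 was at 111, 109 and 112 CPM in vehicle, 418, 432 and 446 CPM at 4 h and 140.0, 148 and 141 CPM at 1 day (-1.60 ± 0.05, adjusted p 1.1e-24), and Irs1 at 579, 531 ± 19.7 and 206 ± 15.96 CPM (-1.36 ± 0.05, adjusted p 1.1e-21). Irs2 was thus a gene with a peak at 4 h, and Irs1 was close to its vehicle level at 4 h and low only at 1 day. Pik3r3, a regulatory subunit of PI 3-kinase, rose from 28.9 ± 2.98 to 49.7 ± 4.23 CPM.

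The machinery of ribosome assembly was the only list of 10 or more in which every tested member fell. All 39 tested genes of ribosome biogenesis and RNA polymerase I fell, 17 of them by 2-fold or more, with a median of -0.96. Among all tested genes 28.9% fell, and 4.6% by 2-fold or more. With library size alone 38 of the 39 were lower and none higher. Rrp12, which exports ribosomal subunits, was at 41.5, 41.7 and 42.9 CPM in vehicle, 96.8, 102 and 91.7 CPM at 4 h and 34.0, 30.7 and 34.2 CPM at 1 day (-1.55 ± 0.07, adjusted p 1.4e-18). Polr1b, a core subunit of the polymerase, fell from 52.9 ± 3.79 to 19.8 ± 0.716 CPM, Wdr43 from 121 ± 2.67 to 47.4 ± 2.38 CPM and Ddx21, a nucleolar helicase, from 318 ± 8.46 to 131 ± 3.96 CPM. All 4 were above vehicle at 4 h and below it at 1 day on the mean. Cytosolic ribosomal protein genes fell in 42 of 44 cases by small amounts (median -0.29), 19 with library size alone. Reads of these genes can be split with processed copies, so single members are not given. Rn45s was at 95721 ± 2673 CPM at 4 h and 74739.8 ± 5930.3 CPM at 1 day (-0.36 ± 0.12, adjusted p 0.02), a call lost without FSK4h S5, FSK1D S7 or FSK1D S9 (edgeR adjusted p 0.069 in each) and with library size alone (0.14), in libraries that had been depleted of ribosomal RNA. Of 18 abundant noncoding RNAs and hosts of small nucleolar RNAs, 13 fell and none rose, 10 with library size alone, for example Snhg1 from 35.2 ± 2.24 to 18.3 ± 1.33 CPM.

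Of 20 aminoacyl-tRNA synthetases, which charge tRNAs with amino acids, 17 fell (85%, against 28.9% of all tested genes) and none rose. The median was -0.42, and the counts were 16 and 1 under library size alone. Eprs, the enzyme for glutamate and proline, was at 235, 246 and 239 CPM in vehicle, 784, 790.5 and 784 CPM at 4 h and 254, 254 and 236 CPM at 1 day (-1.66 ± 0.04, adjusted p 2.1e-25). Of 27 targets of ATF4, the factor of the amino acid response, 15 fell and 2 rose (median -0.27), and 13 and 6 with library size alone (median -0.10). Under TMM 55.6% of the targets fell and 7.41% rose, against 28.9% and 28.4% of all tested genes. Slc7a5, the large neutral amino acid transporter, fell from 333 ± 11.9 to 87.4 ± 8.00 CPM, Slc7a1, the cationic transporter, from 264 ± 8.88 to 84.0 ± 2.49 CPM, and the hormone gene Fgf21 from 5.09, 5.62 and 4.50 to 1.53, 1.97 and 1.302 CPM (-1.66 ± 0.25, adjusted p 7.1e-07). Trib3 and Nupr1, also induced through ATF4, rose by 0.33 and 0.48 on the log2 scale. Ddit3, encoding CHOP, was at 47.7 ± 0.805 and 46.2 ± 2.95 CPM with overlapping libraries (adjusted p 0.56).

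ER chaperones and unfolded protein response genes gave 13 lower and 4 higher of 28, and 8 and 9 with library size alone. Hspa5, encoding BiP, was at 644, 635 and 621 CPM in vehicle, 1605, 1567 and 1650.0 CPM at 4 h and 983, 1005 and 1016 CPM at 1 day (-0.68 ± 0.04, adjusted p 4.1e-16). Dnajb9, a partner of BiP, fell from 114 ± 6.05 to 63.4 ± 3.00 CPM, while P4hb, a protein disulfide isomerase, rose from 1243 ± 19.7 to 1513 ± 37.6 CPM. The ER stress response element, CCAAT and CCACG with 9 bases of any kind between them, searched on both strands, was in 9 of 22 promoters of this list (40.9%) and in 16 of 13589 promoters of tested genes (0.118%). Among genes that fell by 2-fold or more it was in 1 of 578 promoters. The Creld2 window, chr15:88819396-88819645 (plus strand, GRCm38), is shown as an example whose whole window lies outside annotated exons, with capitals on the reverse complement of the element.
Creld2: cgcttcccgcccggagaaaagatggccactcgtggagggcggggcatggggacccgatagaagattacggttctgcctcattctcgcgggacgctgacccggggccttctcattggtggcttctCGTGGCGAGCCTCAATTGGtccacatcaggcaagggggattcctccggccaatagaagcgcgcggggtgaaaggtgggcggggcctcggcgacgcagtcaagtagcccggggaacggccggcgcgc
Creld2, a secreted ER protein, was at 81.2, 73.9 and 74.0 CPM at 4 h and 63.3, 68.1 and 69.7 CPM at 1 day (-0.19 ± 0.06, adjusted p 0.011), above its vehicle libraries of 37.3, 33.2 and 34.0 CPM at both times. This call was lost without FSK4h S4 (edgeR adjusted p 0.11) or FSK1D S7 (0.088), and with library size alone (0.76).

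Antioxidant genes regulated by NRF2 gave 13 lower and 4 higher of 25, and 7 and 7 with library size alone. Without FSK4h S4 the rises were 2. Srxn1, sulfiredoxin, was at 106, 114 and 115 CPM in vehicle, 925, 871 and 828 CPM at 4 h and 220.1, 211 and 223 CPM at 1 day (-2.002 ± 0.05, adjusted p 1.4e-26). Hmox1, heme oxygenase 1, fell from 393 ± 43.5 to 152 ± 18.2 CPM, and Gsr, glutathione reductase, rose from 69.1 ± 3.66 to 97.2 ± 3.45 CPM. Proteasome subunits fell in 21 of 35 cases (60%, against 28.9% of all tested genes), with a median of -0.17. Under library size alone 8 fell and 6 rose. The 3 rises in the main test were 1 without FSK4h S4 and 0 without FSK1D S8. Lysosome and autophagy genes gave 17 lower and 8 higher of 34, 10 and 11 with library size alone, and 4 higher without FSK4h S4. Wipi1, an autophagosome protein, rose from 20.5 ± 0.875 to 43.6 ± 2.47 CPM and Hexa, a lysosomal hexosaminidase, fell from 151 ± 4.21 to 87.3 ± 4.41 CPM.

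Genes of DNA replication and mitosis rose in 22 of 36 cases (61.1%, against 28.4% of all tested genes) and fell in 5 (13.9%, against 28.9%). The median was 0.31, and the counts were 28 and 2 under library size alone. All 36 log2 fold changes were under 1 in size. Tk1, thymidine kinase, was at 39.8, 34.1 and 37.4 CPM in vehicle, 25.9, 27.6 and 27.5 CPM at 4 h and 52.5, 53.8 and 48.8 CPM at 1 day (0.94 ± 0.07, adjusted p 2.5e-13), and Ccne1, cyclin E1, rose from 21.8 ± 1.36 to 37.2 ± 2.23 CPM. The mitotic genes Aurkb and Ccnb2 rose from 27.7 ± 1.08 to 47.2 ± 3.42 CPM and from 32.6 ± 1.24 to 54.8 ± 1.85 CPM. Besides Rrm2, the falls were in members of the replication helicase family, Mcm2, Mcm3, Mcm4 and Mcm5. With library size alone Mcm2 and Mcm3 were not called and Mcm5 was at 0.0049 on the log2 scale. The Mcm5 call was also lost without FSK4h S4 (edgeR adjusted p 0.087). Mcm4 went from 292 ± 3.78 to 238 ± 7.00 CPM, and Rrm2, a ribonucleotide reductase subunit, from 416 ± 15.9 to 326 ± 13.04 CPM. Ccnd1, cyclin D1, fell from 30.5 ± 5.33 to 11.8 ± 0.694 CPM (-1.37 ± 0.10, adjusted p 5.1e-13) from a vehicle level of 71.3 CPM, with an overlapping neighbour gene that makes it uncertain. Histone genes rose in 14 of 17 cases (82.4%, against 28.4% of all tested genes; median 0.45), and in 16 with library size alone. None fell, with 1 falling without FSK1D S8. H1f0, the linker histone of resting cells, rose from 91.9, 90.4 and 87.5 to 175, 183 and 169 CPM (0.97 ± 0.05, adjusted p 1.5e-18), and Hist2h2be from 5.87 ± 0.845 to 23.2 ± 1.95 CPM. Besides Bmf, the p53-linked genes Trp53inp1 and Bbc3 rose, from 62.6 ± 6.93 to 173 ± 19.9 CPM and from 3.58 ± 0.499 to 6.54 ± 0.434 CPM, both to levels under their vehicle means of 259.5 and 10.7 CPM. Cyclins, CDK inhibitors and p53 targets as a whole gave 12 lower and 9 higher of 25, and 8 and 13 with library size alone.

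Most genes of the contractile cytoskeleton fell. Of 19 tested smooth muscle and myofibroblast genes, 15 fell and 1 rose (median -0.61; 13 and 2 with library size alone), and 7 fell by 2-fold or more against 4.6% of all genes. Myl9, a myosin light chain, was at 36.8, 35.6 and 37.7 CPM in vehicle, 23.8, 24.3 and 25.6 CPM at 4 h and 4.95, 5.38 and 6.66 CPM at 1 day (-2.12 ± 0.10, adjusted p 2.1e-18). Actin genes have near-identical copies, so reads of Acta2 and Actg2 may be shared, and Actg2 was at 0.560 ± 0.204 CPM and 0.0510 ± 0.0884 CPM. Lmod1 was the single riser, from 0.318 ± 0.115 to 1.38 ± 0.333 CPM, under its vehicle mean of 4.07 CPM. Targets of YAP, a mechanically controlled coactivator, gave 11 lower and 6 higher of 19 (median -0.27), and 9 and 6 with library size alone (median -0.10). Nuak2 fell from 17.1 ± 1.55 to 6.03 ± 1.09 CPM, and Ctgf rose from 113 ± 19.005 to 165 ± 6.76 CPM against 376 CPM in vehicle.

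Matrix genes were split, with 15 higher and 14 lower of 36, and 19 and 11 with library size alone. Col3a1, a fibrillar collagen, was at 665, 713 and 707 CPM in vehicle, 709, 655 and 737 CPM at 4 h and 2701, 2499 and 2799 CPM at 1 day (1.93 ± 0.06, adjusted p 6.3e-23). Vehicle and 4 h were alike there and every 1 day library was more than 3 times higher. Col1a1, the major fibrillar collagen, was at 2969 ± 65.5 and 2935 ± 149 CPM (adjusted p 0.86). Thbs1, thrombospondin 1, fell from 1980.4 ± 42.0 to 835 ± 122 CPM. Of 24 matrix proteases and inhibitors, 14 fell and 6 rose (median -0.46), and 12 and 6 with library size alone. Plaur, the urokinase receptor gene, fell from 30.6 ± 2.09 to 11.5 ± 0.726 CPM, and Adamts5, an aggrecanase, rose from 30.8 ± 0.239 to 60.7 ± 1.08 CPM against 151 CPM in vehicle.

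Of 19 genes of prostaglandin and hyaluronan synthesis, 7 fell and 6 rose, and 6 and 6 with library size alone. Has2, a hyaluronan synthase, was at 6.82, 6.43 and 5.50 CPM in vehicle, 124, 120.1 and 121 CPM at 4 h and 28.8, 24.8 and 25.99 CPM at 1 day (-2.20 ± 0.07, adjusted p 2.8e-23). Ugdh, which makes its sugar precursor, was at 2807 ± 50.5 CPM at 4 h and 671 ± 8.10 CPM at 1 day (-2.06 ± 0.05, adjusted p 2.2e-27), with 281 CPM in vehicle. The inducible cyclooxygenase Ptgs2 fell from 865 ± 18.0 to 222 ± 44.8 CPM, while the constitutive Ptgs1 rose from 78.7 ± 6.12 to 133 ± 12.2 CPM and the prostaglandin F receptor gene Ptgfr from 49.0 ± 2.20 to 126 ± 17.7 CPM.

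Of TGF-β family ligands, antagonists and targets, 13 fell and 6 rose of 25 (median -0.29), and 12 and 7 with library size alone (median -0.13). The median was -0.49 without FSK4h S4 and -0.44 without FSK4h S6. Inhba, the activin A subunit, was at 18.4, 15.95 and 17.9 CPM in vehicle, 179.7, 183 and 177 CPM at 4 h and 37.95, 31.0 and 46.8 CPM at 1 day (-2.22 ± 0.10, adjusted p 1.8e-12). Its antagonist Fst, follistatin, fell from 30.6 ± 1.96 to 9.44 ± 0.651 CPM. Grem1, a BMP antagonist, rose from 54.6 ± 1.96 to 113 ± 7.10 CPM. Wnt genes were mostly low, with 5 lower and 4 higher of 20, and 4 and 4 with library size alone. Both main shares, 25% and 20%, were under those of all tested genes (28.9% and 28.4%). Wnt11 fell from 3.75 ± 0.819 to 0.800 ± 0.381 CPM, and Wnt16 rose from 0.411 ± 0.121 to 3.65 ± 0.618 CPM with 5.29 CPM in vehicle.

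Cytokine genes gave 12 lower and 6 higher of 24 (median -0.53), and 10 and 7 with library size alone (median -0.37). The main falls and rises were 50% and 25%, against 28.9% and 28.4% of all tested genes. The median was -0.32 without FSK1D S8 and -0.34 without FSK4h S6. Members of the interleukin 6 family that signal through gp130 were among the falls. Lif was at 2.84, 2.43 and 3.08 CPM in vehicle, 56.3, 56.9 and 52.4 CPM at 4 h and 8.77, 6.78 and 10.3 CPM at 1 day (-2.68 ± 0.11, adjusted p 7.2e-20). Clcf1 fell from 179 ± 1.19 to 49.6 ± 7.08 CPM, and Il6 (chromosome 5, 30013114 to 30019981, plus strand) from 25.7, 25.0 and 26.5 to 12.5, 9.09 and 16.5 CPM (-1.02 ± 0.15, adjusted p 6.9e-07), with 0.123, 0.197 and 0.330 CPM in vehicle. All 3 ligands stayed above vehicle at 1 day. The chemokine Cxcl12 was at 408 CPM in vehicle and fell from 169 ± 2.35 to 65.4 ± 1.53 CPM. Ccl8 and Cxcl5 rose, from 3.04 ± 1.51 to 9.73 ± 1.71 CPM and from 0.298 ± 0.117 to 2.31 ± 0.699 CPM. Of 18 subunits and targets of NF-κB, 9 fell and 1 rose, Bcl3, from 4.27 ± 0.496 to 8.96 ± 0.734 CPM. Under library size alone 7 were lower and 4 higher, with a median of -0.02 in place of -0.19. The rises under TMM were 2 without FSK4h S4 and without FSK1D S7. Acute-phase and complement genes gave 9 higher and 8 lower of 24, and 11 and 6 with library size alone, with Hp, haptoglobin, rising beside Lcn2 and Saa3. Hp was at 348, 399 and 345 CPM in vehicle, 417, 355 and 416 CPM at 4 h and 1757, 1739 and 1836 CPM at 1 day (2.17 ± 0.15, adjusted p 2.6e-07). Stat3, the factor downstream of gp130, was at 504 ± 14.5 CPM at 4 h and 296 ± 4.60 CPM at 1 day (-0.77 ± 0.04, adjusted p 2.5e-16).

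Of 33 interferon-stimulated genes, 11 were called higher, a share near the 28.4% of all tested genes, and none lower, with a median of 0.65. The counts were 17 and 0 with library size alone. The values differed by library. Their summed level was 1331 to 1719 CPM in vehicle, 944, 757 and 881 CPM in the 4 h libraries S4, S5 and S6, and 1164, 1619 and 887 CPM in the 1 day libraries S7, S8 and S9. FSK1D S8 was the highest and FSK1D S9 lay within the 4 h range. The count of rises was 7 without FSK1D S8, where the median was 0.24 and 1 gene fell, 7 without FSK4h S5 and 20 without FSK1D S9. Irf1, an interferon regulatory factor, was more even, at 25.1, 27.5 and 25.3 CPM at 4 h and 57.6, 59.0 and 53.6 CPM at 1 day (1.13 ± 0.07, adjusted p 2.0e-16). Dhx58, an RNA sensor, was at 7.15, 3.48 and 5.98 and 13.8, 24.2 and 7.73 CPM (1.43 ± 0.41, adjusted p 0.012), with an edgeR adjusted p of 0.057 without FSK1D S8.

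Clock genes changed in both directions (10 lower, 7 higher of 19; 8 and 7 with library size alone). Cry1, a clock repressor, was at 22.8, 23.0 and 23.4 CPM in vehicle, 51.9, 58.7 and 52.6 CPM at 4 h and 15.03, 18.6 and 16.3 CPM at 1 day (-1.71 ± 0.08, adjusted p 6.4e-19). Arntl, encoding BMAL1, fell from 34.9 ± 1.78 to 13.9 ± 1.37 CPM. The clock output factor Dbp rose from 4.34, 4.89 and 4.54 to 13.1, 16.6 and 13.8 CPM (1.66 ± 0.12, adjusted p 2.0e-13) and Per3 from 17.2 ± 1.55 to 46.0 ± 0.657 CPM. At 1 day Dbp was at about its vehicle mean of 13.8 CPM and Cry1 was under all its vehicle libraries. Clock time at harvest and hours of forskolin cannot be told apart here.

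Among nuclear receptors and adipogenic factors (15 lower, 14 higher of 34; 12 and 15 with library size alone), Klf15, a glucocorticoid-induced metabolic factor, had the largest rise. It was at 11.7, 15.1 and 14.3 CPM in vehicle, 3.41, 3.56 and 3.82 CPM at 4 h and 18.3, 20.4 and 15.9 CPM at 1 day (2.34 ± 0.13, adjusted p 1.1e-15). Thrb, a thyroid hormone receptor gene, rose from 9.99 ± 0.178 to 20.6 ± 0.356 CPM. Foxc2 fell from 31.3 ± 2.19 to 10.1 ± 0.737 CPM and Rxrg, a partner of PPARs, from 9.49 ± 1.71 to 4.19 ± 0.406 CPM.

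Growth factors fell in 17 of 33 cases and rose in 6 (median -0.41), with 15 and 8 under library size alone (median -0.24). The median was -0.24 without FSK1D S9 and -0.25 without FSK1D S7. Besides Nppc and Areg, the EGF receptor ligand Hbegf fell from 31.7 ± 1.46 to 6.72 ± 0.737 CPM (-2.24 ± 0.12, adjusted p 2.8e-17). The risers were Angptl2, Igfbp4, Angpt1 and Hgf, with log2 fold changes of 1.26, 1.151, 1.22 and 1.09, and Igfbp6 and Fgf10, with 0.57 and 0.47. The Fgf10 call was lost without FSK1D S7. Ngfr, the p75 neurotrophin receptor gene, was in the Schwann cell list and fell from 3.71, 2.91 and 2.95 to 0.619, 0.379 and 0.306 CPM (-2.87 ± 0.25, adjusted p 9.3e-12), with 9.91, 12.5 and 11.2 CPM in vehicle. Sox10, the defining gene of that list, was at 0.375 ± 0.111 and 0.289 ± 0.184 CPM. Of the other cell type lists, 1 of 3 tested leukocyte genes fell (Cd68), 2 of 4 endothelial genes fell (Pecam1 and Kdr) and 1 of 3 skeletal muscle genes fell (Acta1, whose reads may come from Acta2). With library size alone there were 0 leukocyte, 1 endothelial and 1 skeletal muscle falls, and with some single libraries left out the leukocyte and endothelial falls were 0 or 1. The Schwann cell and neuronal list gave 1 lower and 3 higher of 6 under both scalings.

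Among transporters, 11 fell and 7 rose of 26, and 10 and 10 with library size alone. Slc40a1, the iron exporter ferroportin, was at 15.6 CPM in vehicle, 1.299 ± 0.284 CPM at 4 h and 2.62 ± 0.298 CPM at 1 day (1.03 ± 0.18, adjusted p 7.7e-06). Progenitor markers showed no common direction (6 lower, 4 higher of 18; 6 and 6 with library size alone). Under TMM 33.3% of them fell and 22.2% rose, against 28.9% and 28.4% of all tested genes. Ly6a, encoding Sca-1, was at 135, 108 and 119 CPM in vehicle, 158, 103 and 149.7 CPM at 4 h and 428, 438 and 427 CPM at 1 day (1.65 ± 0.17, adjusted p 7.4e-06), with reads that may be shared with Ly6c1. Pdgfra, the progenitor receptor gene, fell from 373 ± 6.90 to 279 ± 14.04 CPM and Pdgfrb rose from 154 ± 13.7 to 209 ± 10.7 CPM.

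**Figure D4:**
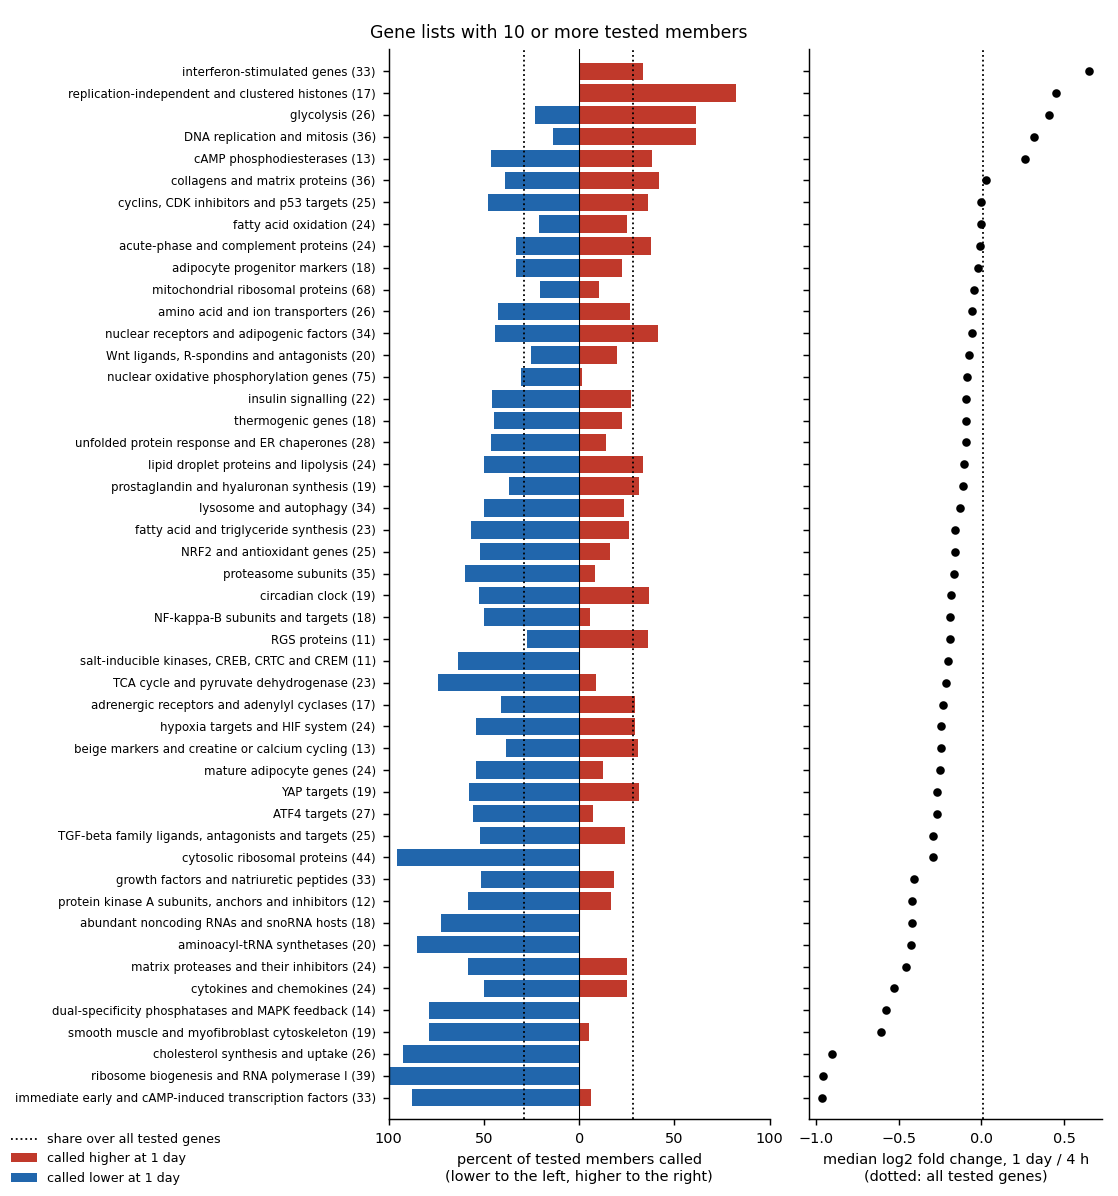
For each list of at least 10 tested genes, the left panel gives the percent of members called higher (right, red) or lower (left, blue) at 1 day, with dotted lines at the shares over all tested genes, 28.4% and 28.9%, and the right panel gives the median log2 fold change. Ribosome biogenesis, cholesterol synthesis and the immediate early factors have the lowest medians, near -0.9 to -1.0.

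**Figure D5:**
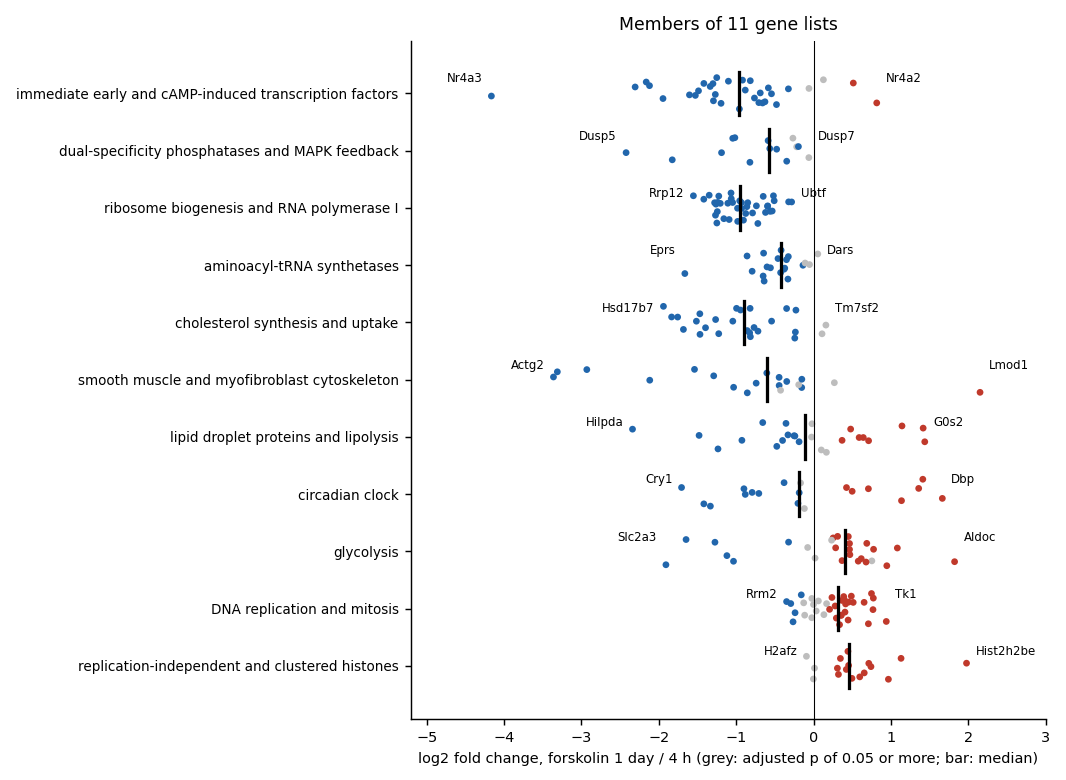
Log2 fold changes, 1 day over 4 h, of the tested members of 11 lists, each point a gene (red higher, blue lower, grey not called) and each bar a list's median. The ribosome biogenesis members all lie below 0, while the immediate early factors run from Nr4a3 to Nr4a2 on either side of it.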

How the data were processed

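RNA from MAP adipocytes was extracted with TRIzol, depleted of ribosomal RNA and sequenced, per the labels' protocols. The authors deposited raw read counts per gene for 15 libraries, and fastp, STAR, featureCounts and GRCm38 (mm10) are named in the submitters' processing notes. Versions, annotation, strand and read-pair handling were not given in the sources used here. Per library, 407 to 539 genes had a count of 1 and 721 to 907 a count of 2, so both mates of a pair may have been counted. Counts were also halved as an alternative.

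Genes were filtered with filterByExpr, scaled by TMM and tested with edgeR 4.0.16 (R 4.3.3) by the quasi-likelihood test with robust dispersions, on all 15 libraries in 5 groups (10 residual degrees of freedom). Benjamini-Hochberg adjusted p under 0.05 was called. CPM values use TMM-scaled totals. Columns were mapped to groups by their names, and S numbers are the running numbers in those names. The test was checked before use on counts simulated from its own fitted dispersions with few genes changed. That check does not cover the choice of scaling. The labels do not tie the 3 libraries of a group to separate cultures. The p-values rest on the spread among libraries within a group, pooled over the 5 groups of 15 libraries, and that spread may therefore be technical. The depth was at least 25638062 counts in each of the 6 compared libraries, and 14056200 in FSK3D S11, the smallest of the 15. Levels of a few counts carry counting error on top.

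The comparison and the 53 gene lists were chosen with earlier results of these data known. Named genes were the 12 largest called rises and 12 largest called falls without overlap and with at least 5 CPM in the higher group, clone-like symbols left out, then up to 4 called rises and 4 called falls of each list with at least 1 CPM, all members of lists of up to 15 genes, members that did not pass the test as values, and a fixed set of cAMP and adipocyte genes. Lpl, Fosl1, Junb, Atf3, Btg2, Maff, Creld2, Actg2, Irf1, Pdgfra, Rxrg, Mcm5, Pfkfb4, Slc16a1, Igfbp6 and Fgf10 lie outside that rule and were chosen after their values were seen. Gene positions and annotated exons are from GENCODE (GRCm38), and promoters are from RefSeq, GRCm38.p6. Promoters were found for 10736 of the 14421 tested genes. Alternatives were RLE size factors, library size alone, a 1 CPM filter, no filter, the 6 libraries alone, DESeq2 1.42.0, halved counts, libraries thinned to the smallest total, removal of Rn45s, and leaving out each library. Figures were drawn with matplotlib 3.10.9.
Some genes that the rule picked are not reported here.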

Additional observations from a re-analysis of the deposited data

Results flagged for a closer look

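For 37 of the genes named in the text, the level lay on opposite sides of vehicle at the 2 times, with both steps from vehicle and the step from 4 h to 1 day passing the edgeR test. Many of the named genes were picked for large changes from 4 h to 1 day. The share among all tested genes was not counted, so the 37 have no background to be read against. The comparisons share libraries, so the 3 log2 fold changes of a gene are not independent, and the test of the difference is the 1 day against 4 h test itself. The values in parentheses are 4 h over vehicle, 1 day over vehicle and 1 day over 4 h.

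Above vehicle at 4 h and below it at 1 day were 24 genes. In secreted proteins and signals they were Fgl2 (3.14, -0.37 and -3.51) and Hbegf (1.42, -0.82 and -2.23). In cholesterol synthesis they were Msmo1 (0.67, -1.16 and -1.83) and Idi1 (0.60, -1.08 and -1.68). In ribosome biogenesis they were Rrp12 (1.20, -0.35 and -1.55), Polr1b (0.80, -0.62 and -1.42), Wdr43 (0.86, -0.49 and -1.35) and Ddx21 (0.99, -0.29 and -1.28). In energy and fuel metabolism they were Dgat1 (1.89, -0.17 and -2.06), Pck1 (2.09, -0.60 and -2.69), Pfkfb3 (0.72, -0.56 and -1.27), Lpl (0.13, -0.29 and -0.41), Ppara (0.25, -1.35 and -1.60), Ppargc1a (1.22, -0.79 and -2.01) and Ppargc1b (0.45, -0.98 and -1.43). In transport they were Nipal1 (2.34, -0.70 and -3.04), Slc7a1 (1.43, -0.22 and -1.65) and Slc7a5 (1.17, -0.76 and -1.93). In transcription and signalling they were Egr2 (1.67, -0.63 and -2.31), Foxc2 (0.75, -0.88 and -1.63), Cry1 (1.24, -0.47 and -1.71), Dusp10 (1.39, -0.44 and -1.83), Nuak2 (0.30, -1.20 and -1.50) and Prkar2a (0.70, -0.12 and -0.82). Msmo1 and Idi1 are enzymes of 1 pathway, and the 4 ribosome biogenesis genes are each among the list in which every member fell.

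Below vehicle at 4 h and above it at 1 day were 13 genes. In transcription and signalling they were Klf15 (-1.93, 0.42 and 2.34), Srebf1 (-1.23, 0.39 and 1.63), Irf1 (-0.89, 0.24 and 1.13) and Pde7b (-1.05, 1.21 and 2.25). In cell cycle and chromatin they were Hist2h2be (-0.76, 1.21 and 1.98), Tk1 (-0.46, 0.48 and 0.94), Aurkb (-0.28, 0.49 and 0.77) and Ccnb2 (-0.40, 0.34 and 0.75). In secreted proteins they were Pla2g5 (-1.02, 2.02 and 3.03), Angptl2 (-0.54, 0.72 and 1.26) and Igfbp4 (-0.29, 0.87 and 1.15). In lipid and autophagy they were Scd2 (-0.59, 0.18 and 0.77) and Wipi1 (-0.89, 0.20 and 1.09). The steps of Lpl and Prkar2a to either side were small beside those of Egr2 or Pck1.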

How the results depend on the processing

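Every count of called genes kept within 1.5 times its value under RLE size factors, both other filters, the 6 libraries alone, DESeq2, halved counts, thinned libraries and removal of Rn45s. Library size alone gave 5974 genes higher and 2709 lower at any size of change, and 1039 higher and 469 lower by 2-fold or more. The 2709 and the 1039 lay beyond 1.5 times the main counts. Leaving out single libraries gave 3803 to 3846 genes higher, 3849 to 3923 lower, 657 to 725 higher by 2-fold and 633 to 662 lower by 2-fold. Of the list medians under all alternatives, 633 stayed within the spread of the list between libraries and 162 moved beyond it. That spread was the SD, within groups, of the list's mean log2 CPM. Among the genes named, Lipe and Mcm5, each called in the main fit or the alternative, changed sign with library size alone, to 0.14 and 0.0049. Genes called in neither fit could change sign too, as Prdm16 did, from -0.94 without FSK1D S9 to 0.06 without FSK1D S8. Such changes were not counted as reversals. Of the single-gene values under all alternatives, 2986 kept their side of the threshold, 48 lost the call and 7 gained it. The called values among the 2986 also kept their direction. Beside the losses given with each gene, thinning ended the calls of Adrb3, Cd68, Creld2, Elovl3, Fasn, Fgf10 and Pfkfb4, the fit of the 6 libraries those of Dhx58 and Elovl3, and no filter that of Pecam1. No paired analysis was possible because the column names carry running library numbers and not the replicate numbers of the labels. On the second principal component of the 6 libraries (9.16% of the variance), S4, S5 and S6 lay at 1.84, -15.8 and 14.3 and S7, S8 and S9 at 2.11, -20.0 and 17.6. This order of libraries is not given as a pairing by the labels, and no block was fitted by it. Genes of a few counts, such as Nppc and Areg at 1 day or Actg2, are limited by depth.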
